A study of Rattus norvegicus with 30 samples.

Results

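Among the 17322 genes measured in rat testis, 110 were at least 4 times higher than at 8.5 days postpartum (dpp) in testes of 24.5 dpp and also in testicular tissues cultured for 28 days (D28). Means had to reach 3 FPKM (fragments scaled to transcript length and to the mapped reads of a library) in both later groups. The in vivo condition alone was met by 998 genes and the culture condition alone by 340, so the 110 members were 11% of the former and 32.4% of the latter. The members were chosen by their FPKM at 8.5 dpp, 24.5 dpp and D28, and these values are therefore described without a test. The testes of 14.5 dpp and of 30.5 dpp and older, and the shorter cultures, had no part in that choice.

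Testes of untreated Wistar Han rats were taken at 8.5 dpp, 14.5 dpp, 24.5 dpp, 30.5 dpp, 36.5 dpp and 53.5 dpp. Pieces of 8.5 dpp testes were kept on agarose for 6, 16, 22 or 28 days (D6, D16, D22, D28), in αMEM with serum replacement, retinol and vitamin E, so that D6 matches 14.5 dpp, D16 24.5 dpp, D22 30.5 dpp and D28 36.5 dpp in age. Each of the 10 groups has 3 polyA RNA libraries except 14.5 dpp, where 2 were used. The other is labelled an outlier, was excluded by the study for its different transcriptomic profile, and is listed at 0 for every gene. The cultured libraries come from several explants each, freed of their necrotic centre, so they represent the surviving rim of the tissue. The study pooled explants from at least 3 juvenile males in each cultured sample, while its in vivo replicates were different testes. Spread within cultured groups is therefore averaged over animals and is not directly comparable with that between testes. The study describes the RNA sets of each time point as independent. The sources used here do not say whether same-group libraries come from separate litters or culture runs, and p-values measure only the spread between these libraries.

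Sertoli cells are the somatic cells of the seminiferous tubule that nurse the germ cells. Before puberty they stop dividing, seal the tubule with tight junctions and begin to secrete carrier proteins, protease inhibitors and fluid. Over the same weeks spermatogonia enter meiosis as spermatocytes, which become haploid spermatids that build an acrosome and a flagellum. In bulk tissue, fewer cells of a type and less RNA per cell cannot be told apart.

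The tissue labels were checked against defining markers. Summed FPKM of 3 Sertoli cell transcription factor genes, Sox9, Wt1 and Gata4, was 406 ± 19.0 (SD, n = 3) at 8.5 dpp, 128 ± 18.7 (SD, n = 3) at 24.5 dpp and 46.1 ± 4.89 (SD, n = 3) at 30.5 dpp. In cultured tissues the group means of this sum were 394 to 421. The germ cell gene Ddx4 went from a mean of 3.76 FPKM at 8.5 dpp to 75.9 at 30.5 dpp and was between 5.82 and 7.60 in the cultured groups. Dazl, another germ cell gene, had means of 21.2 FPKM at 8.5 dpp, 314 at 24.5 dpp, 110 at 30.5 dpp and 75.5 at 36.5 dpp, and of 60.1 to 92.5 in the cultured groups. Cyp17a1, a Leydig cell steroidogenic enzyme, had a mean of 77.0 FPKM at 8.5 dpp and of 0.596 or less in every cultured group. Macrophage markers that are no members (22 genes) summed to a mean of 168 FPKM at 8.5 dpp, 58.4 at 24.5 dpp, 104 at 30.5 dpp, 151 at 36.5 dpp and 263 at 53.5 dpp, and of 213 to 264 in the cultured groups. Cd68 and Csf1r of this list fell in vivo instead, from means of 2.72 and 2.83 FPKM at 8.5 dpp to 0.602 and 0.380 at 53.5 dpp. Their means in the cultured groups were 5.72 to 8.31 and 2.64 to 3.15. The sum thus came mostly from other genes of the list.

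Not all 110 members are measured well. In 17 of them a library is listed at 0 beside one of the same group at 3 FPKM or more, which was seen in 2.26% of the 12762 genes that reached a median of 0.5 FPKM in some group. Another 3 (Bbox1, Rhoxf2b and Septin14) are counted with them because all 8.5 dpp libraries are listed at 0. These 20 include ribosomal protein genes that every cell uses (Rpl6, Rps26 and Fau) and chromatin genes (Rbbp4, H2az2, Hmgb2 and Hmga1). Rpl6, for instance, is listed at 0 in all 8.5 dpp and 14.5 dpp libraries and at 0, 50.1 and 0 FPKM in the D28 libraries. The other 90 members carry the description below.

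The 2 testes of 14.5 dpp stood apart from each other over the members. The median of the 90 members was 2.83 ± 0.698 (SD, n = 2) on the log2(FPKM + 1) scale at 14.5 dpp, the largest SD of the 10 groups. Aqp8 was 0.962 in replicate 1 and 15.4 in replicate 2, Shbg was 49.9 and 177, and Sycp3 was 6.17 and 38.4 FPKM. Counts and the differences printed for single genes against 14.5 dpp are therefore also given without each of these libraries.

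Shbg, Aqp8, Sycp3 and Ciart are shown with the 250 bases upstream of the transcription start, because they stand for the Sertoli, meiotic and clock genes described below and their windows hold matches to some of the 9 motifs searched. The sequences are from RefSeq on the GRCr8 build, which is not the rn6 build of the expression values, and run 5′ to 3′ on the strand of the gene. Capitals mark matches.
Shbg (chr10:54834902-54835151, minus strand): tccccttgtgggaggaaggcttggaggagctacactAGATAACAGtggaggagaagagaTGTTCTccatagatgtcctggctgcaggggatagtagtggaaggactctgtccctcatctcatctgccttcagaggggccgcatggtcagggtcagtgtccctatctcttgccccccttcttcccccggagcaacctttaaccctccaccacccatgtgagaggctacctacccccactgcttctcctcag
Aqp8 (chr1:187424193-187424442, plus strand): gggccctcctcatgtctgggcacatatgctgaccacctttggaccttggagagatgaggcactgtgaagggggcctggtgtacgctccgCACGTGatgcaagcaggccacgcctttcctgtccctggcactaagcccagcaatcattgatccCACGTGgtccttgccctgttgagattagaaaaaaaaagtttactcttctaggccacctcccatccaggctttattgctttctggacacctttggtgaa
Sycp3 (chr7:24761226-24761475, plus strand): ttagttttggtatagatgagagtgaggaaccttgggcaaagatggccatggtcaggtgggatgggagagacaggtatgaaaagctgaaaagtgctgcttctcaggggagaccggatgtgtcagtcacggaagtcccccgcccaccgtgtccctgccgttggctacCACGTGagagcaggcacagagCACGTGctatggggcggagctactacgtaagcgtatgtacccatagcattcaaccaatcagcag
Ciart (chr2:186112247-186112496, minus strand): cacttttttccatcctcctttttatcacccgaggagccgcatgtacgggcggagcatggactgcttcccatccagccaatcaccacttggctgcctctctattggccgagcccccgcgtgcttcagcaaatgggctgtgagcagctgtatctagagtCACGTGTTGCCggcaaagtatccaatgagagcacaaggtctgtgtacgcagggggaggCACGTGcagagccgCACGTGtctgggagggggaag
In Shbg the capitals are a GATA site (AGATAA, 214 bases before the start), an overlapping MYB site (TAACNG, at 211) and part of a steroid receptor element (AGAACA read on the other strand, at 191). In Aqp8 they are E-boxes (CACGTG) at 161 and 98, and in Sycp3 E-boxes at 85 and 64 bases before the start. In Ciart there are 3 E-boxes, at 93, 35 and 21, and the first overlaps part of an X-box (GTTGCC) at 88. Of the 110 members, 93 had a RefSeq window, here 250 bases before and 50 from the start. Both strands were searched, and an E-box was found in 8 of the 93 (8.60%) and in 6.42% of all 33469 windows. For AGATAA the shares were 9.68% and 11.6%, for AGAACA 11.8% and 20.7%, for TAACNG 16.1% and 23.6%, and for GTTGCC 12.9% and 12.2%. Shares for AACAAT (SOX), TGACGT (part of a cyclic AMP response element), AAGGTCA (part of a nuclear receptor element) and TTANNTAA (D-box) were 8.60% and 11.7%, 7.53% and 7.94%, 4.30% and 4.61%, and 3.23% and 5.84%. A match is a run of letters and not a measured binding site.

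Genes of cell type and pathway lists met the conditions very unevenly. Of 34 measured Sertoli cell maturation genes, 11 met the in vivo condition and 6 of these were members: Aqp8, Cst12, Defb36, Rhox8, Serpina5 and Shbg. Corin, Cst9l, Eppin, Il1a and Prnd met it in vivo and not in culture. Of 18 Sertoli cell identity genes only Clu met it, and Clu was a member.

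Germ cell lists are read beside the share over all genes, where 11% of those that met the in vivo condition were members. Among 39 spermatocyte genes, 32 met the in vivo condition and 3 were members (Sycp3, Tex101 and Tex12), with a median D28 level of 6.10% of that at 24.5 dpp over the 32. Of 41 spermatid genes 10 met it and 1, Dkkl1, was a member, so both lists were near the share over all genes. All 17 axoneme and cilium genes that met it (of 20) failed in culture, at a median of 1.07% of the 24.5 dpp level. Of 18 spermatogonial genes 5 met it in vivo (Dazl, Ddx4, Dmrtb1, Id4 and Sohlh2) and Dmrtb1 and Id4 were members.

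Single members came from the lists of complement (C3ar1), lipid transport (Apod), retinoid handling (Adh1c), lysosomal hydrolases and cystatins (Cst12 again) and clock outputs (Ciart). Lists of Leydig cells, peritubular smooth muscle, blood-testis barrier junctions, macrophages and interferon-stimulated genes held no member. In the Leydig, peritubular and macrophage lists 0 genes met the in vivo condition, and in the barrier list 1 did (Nectin3). With so few genes that could be members, the lack of members in these lists does not show a loss in culture. Of 31 interferon-stimulated genes, 12 met the culture condition and none the in vivo condition. The lists are of unequal size and were not tested for enrichment.

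**Figure D1:**
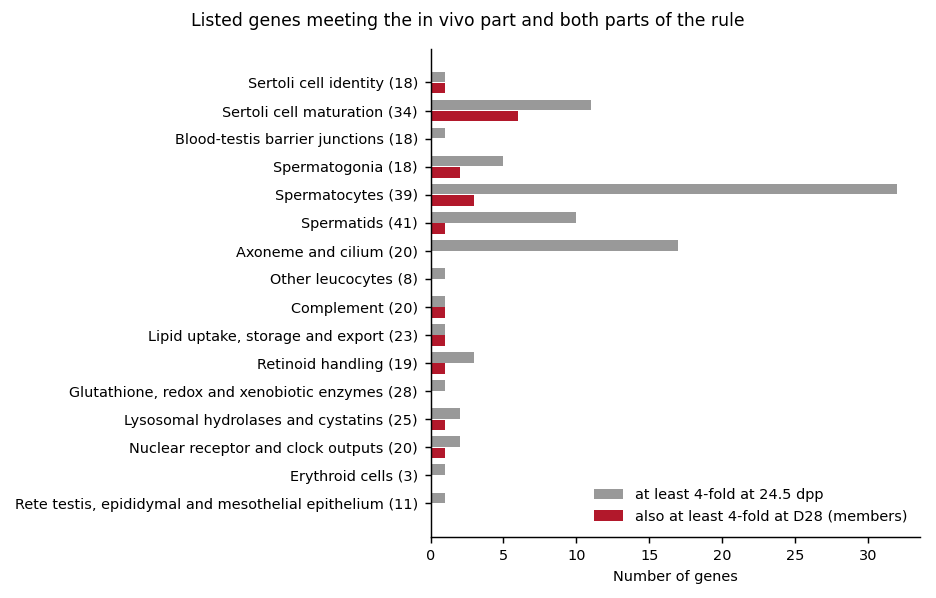
Number of listed genes (x axis) that were at least 4 times their 8.5 dpp level at 24.5 dpp (grey) and also at D28 (red), for each list with at least 1 grey gene, with the number of measured genes in brackets. Sertoli cell maturation genes kept 6 of 11, spermatocyte genes 3 of 32, and axoneme and cilium genes 0 of 17, beside 11% over all genes.

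Over the 90 well measured members, the D28 mean was a median of 87.5% of the 24.5 dpp mean, with a range of 1.54% to 598%. It reached the 24.5 dpp mean in 35 members, was under 25% of it in 11 and under 10% in 7. The lowest were Tesmin, Dkkl1, Sycp3, Spdya, Dnaaf1, Tex101 and Magec2, of which Tesmin, Sycp3, Spdya and Tex101 are known from spermatocytes. The highest were Sstr3, Fam163a, Dapp1, Kcns3, Pla2g2d and Sec14l4. In vivo the members' means were highest at 24.5 dpp in 63, at 30.5 dpp in 9, at 36.5 dpp in 6, at 53.5 dpp in 10 and at 14.5 dpp in 2. In culture 43 peaked at D22, 38 at D28, 5 at D6 and 4 at D16. High means at 24.5 dpp and D28 chose the members, so these counts of peaks are tied to that choice. In 50 of the 90 the D6 mean was already 50% of the D28 mean or more.

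**Figure D2:**
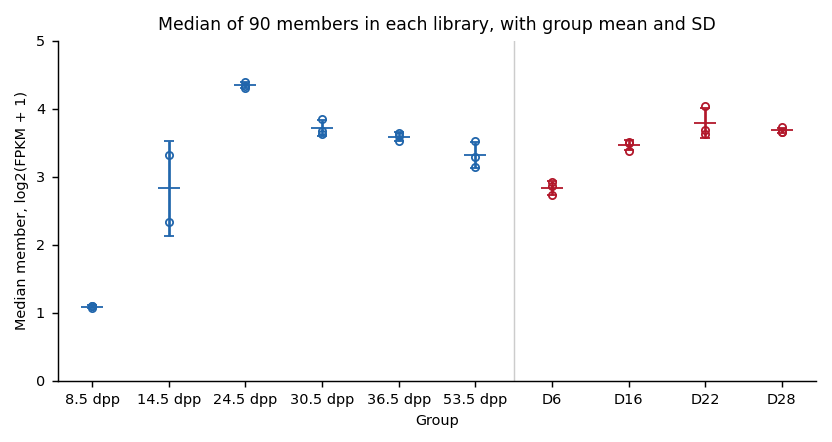
Median of the 90 well measured members on the log2(FPKM + 1) scale (y axis) in each library (circles), with the group mean (horizontal mark) and SD (bar), for testes (blue) and cultured tissues (red). The median was 1.09 at 8.5 dpp and 4.34 at 24.5 dpp, which chose the members, 3.32 at 53.5 dpp, 2.83 at D6 and 3.79 at D22.

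Sertoli secretory genes reached the highest levels. Clu encodes clusterin, a secreted chaperone of Sertoli cells. Its FPKM was 153, 185 and 166 at 8.5 dpp, 1499, 1366 and 2082 at 24.5 dpp, and 628, 520 and 645 at 30.5 dpp. In culture it was 554, 436 and 468 at D6, 1340, 1559 and 1637 at D16, 2630, 2344 and 2219 at D22, and 2989, 2618 and 3391 at D28. Every D16 library was above every D6 library and every D22 library above every D16 library. D16 exceeded D6 by 1.64 on the log2 scale (SE 0.12, limma, Benjamini-Hochberg adjusted p = 0.00142), and D22 exceeded 30.5 dpp by 2.01 (SE 0.12, adjusted p = 5.11e-06).

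Shbg encodes androgen-binding protein, the androgen carrier secreted into the tubule. It stood at 28.9, 21.4 and 19.7 FPKM at 8.5 dpp, 291, 258 and 411 at 24.5 dpp, and 109, 82.2 and 114 at 30.5 dpp. Cultured tissues had 137, 126 and 143 at D6, 175, 248 and 209 at D16, 398, 334 and 316 at D22, and 295, 339 and 322 at D28. The D22 libraries were all above those of 30.5 dpp and within the range of 24.5 dpp. The difference between D22 and 30.5 dpp was 1.78 (SE 0.16, limma adjusted p = 3.04e-05), and that between D16 and D6 (0.62, SE 0.14, adjusted p = 0.0257) did not reach a ratio of medians of 2 and was not called.

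Aqp8, a water channel, had the highest ratios over 8.5 dpp among the well measured members. It was 0.128, 0.0952 and 0.409 FPKM at 8.5 dpp, 285, 308 and 321 at 24.5 dpp, and 139, 113 and 122 at 30.5 dpp. In culture it was 13.0, 10.9 and 13.9 at D6, 66.8, 92.1 and 106 at D16, 201, 136 and 154 at D22, and 202, 203 and 260 at D28. No library of D16 overlapped D6, whereas D22 and 30.5 dpp overlapped. D16 exceeded D6 by 2.70 on the log2 scale (SE 0.18, limma adjusted p = 0.000913), and D22 differed from 30.5 dpp by 0.38 (SE 0.16, adjusted p = 0.0636), which was not called.

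Cst12, a cystatin-type protease inhibitor, and Defb36, a beta-defensin, were further secretory members. Cst12 had 27.3, 30.9 and 28.6 FPKM at 8.5 dpp, 379, 291 and 139 at 24.5 dpp, 189, 255 and 228 at D22, and 201, 238 and 322 at D28. It rose by 1.42 between D6 and D16 (SE 0.11, limma adjusted p = 0.00143). Defb36 had 25.9, 22.4 and 21.5 FPKM at 8.5 dpp, 221, 244 and 200 at 24.5 dpp, 184, 115 and 152 at D22, and 173, 125 and 141 at D28. Its D22 libraries were above all of 30.5 dpp (109, 62.8 and 67.3), by 0.92 (SE 0.26, adjusted p = 0.0113).

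Serpina5 and Rhox8 were lower in culture than at 24.5 dpp by a wider margin. Serpina5, the protein C inhibitor, was 8.66, 7.93 and 7.87 FPKM at 8.5 dpp, 327, 315 and 334 at 24.5 dpp, and 165, 146 and 163 at 30.5 dpp. In culture it was 5.44, 3.99 and 3.22 at D6, below every 8.5 dpp library, then 9.70, 17.4 and 15.1 at D16, 43.7, 46.5 and 33.0 at D22, and 35.0, 56.6 and 72.7 at D28. D6 was lower than 14.5 dpp by 4.21 on the log2 scale, with a limma estimate of -4.21 (SE 0.46, adjusted p = 0.00487). It was -5.02 without 14.5 dpp replicate 1 and -3.41 without replicate 2, and missed the threshold with no filter on low values (limma adjusted p = 0.0638). The rise from D6 to D16 was 1.51 (SE 0.23, adjusted p = 0.00919), and D22 differed from 30.5 dpp by -1.93 (SE 0.15, adjusted p = 1.35e-05). Rhox8, a homeobox gene of Sertoli cells, had 44.8, 47.7 and 57.7 FPKM at 24.5 dpp, and 9.34, 6.61 and 6.87 at D28. Its D22 libraries, at 16.3, 8.60 and 8.07, overlapped those of 30.5 dpp, at 19.2, 13.7 and 17.3, and the difference was not called (-0.62, SE 0.26, limma adjusted p = 0.0601).

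Because Sertoli cell marker levels differ between testis and culture, the same genes were also expressed per summed FPKM of Sox9, Wt1 and Gata4, a quantity chosen after the values were seen and described without a test. On this scale Clu was 0.414 ± 0.0482 (SD, n = 3) at 8.5 dpp, 12.8 ± 1.04 (SD, n = 3) at 24.5 dpp, 13.0 ± 0.447 (SD, n = 3) at 30.5 dpp, 5.84 ± 0.764 (SD, n = 3) at D22 and 7.64 ± 1.12 (SD, n = 3) at D28. Shbg was 0.0572 ± 0.00956 at 8.5 dpp, 2.20 ± 0.179 at 30.5 dpp and 0.851 ± 0.143 at D22 (SD, n = 3 each). Aqp8 was 0.000532 ± 0.000459, 2.71 ± 0.134 and 0.401 ± 0.101, and Serpina5 was 0.0201 ± 0.000613, 3.44 ± 0.151 and 0.0998 ± 0.0177 in the same groups (SD, n = 3 each). At 30.5 dpp and D22, Cst12 was 3.14 ± 0.188 and 0.542 ± 0.0553, Defb36 was 1.72 ± 0.419 and 0.368 ± 0.102, and Rhox8 was 0.362 ± 0.0245 and 0.0270 ± 0.0126 (SD, n = 3 each). All 3 D22 libraries were below all 3 of 30.5 dpp for each of these 7 genes, so the order of D22 and 30.5 dpp for Clu, Shbg, Cst12 and Defb36 turned between the scales, and Aqp8 and Rhox8, which overlapped in FPKM, did not overlap here. All of them remained above 8.5 dpp at D22 on both scales. The 3 reference genes themselves differ in their course with age, and their level per Sertoli cell is not known here.

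**Figure D3:**
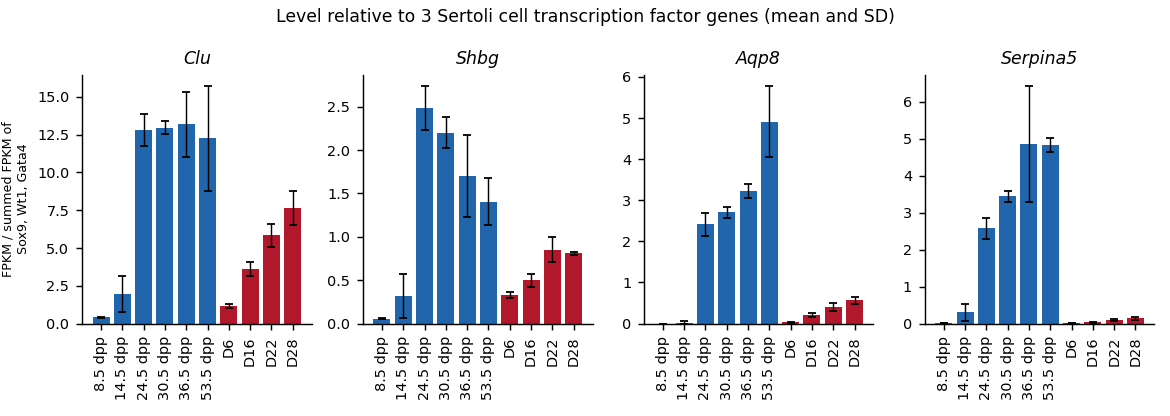
FPKM of Clu, Shbg, Aqp8 and Serpina5 divided by the summed FPKM of Sox9, Wt1 and Gata4 of the same library (y axis, from 0), as group mean and SD, for testes (blue) and cultured tissues (red). The cultured groups lie below the testes of 24.5 dpp and older for all 4 genes, with Clu closest (7.64 at D28 against 12.8 at 24.5 dpp) and Serpina5 farthest (0.138 against 2.58).

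Other abundant members were Elovl2, Susd3 and Isyna1. Elovl2, an elongase of very long polyunsaturated fatty acids, was 10.0, 10.3 and 6.77 FPKM at 8.5 dpp, 217, 232 and 213 at 24.5 dpp, and 118, 130 and 113 at D22. Its D22 libraries were all below those of 30.5 dpp (229, 210 and 211), and the difference of -0.84 (SE 0.10, limma adjusted p = 0.000131) stayed under a ratio of medians of 2. Isyna1, which makes inositol phosphate from glucose phosphate, was 18.1, 32.3 and 24.8 FPKM at 8.5 dpp and 97.8, 83.1 and 80.5 at D22, below the 236, 239 and 228 of 30.5 dpp (difference -1.42, SE 0.11, adjusted p = 1.23e-05). Its D28 libraries had 187, 83.8 and 88.0 FPKM, and without the first of them Isyna1 would not be a member. Susd3, a sushi domain gene, was 7.03, 7.51 and 7.13 FPKM at 8.5 dpp and 72.1, 93.4 and 126 at D22, above the 36.2, 19.8 and 26.4 of 30.5 dpp (difference 1.79, SE 0.27, limma adjusted p = 0.000514).

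**Figure D4:**
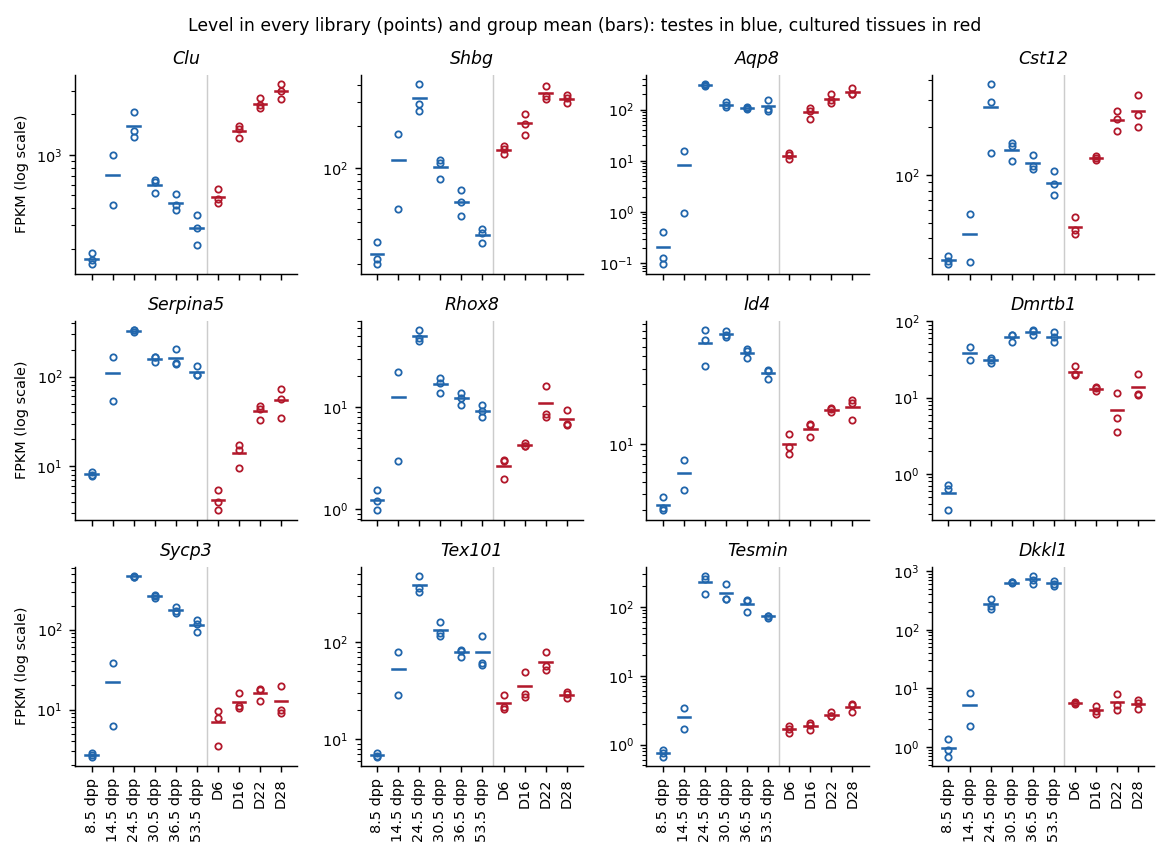
FPKM of 12 members (log scale, y axis) in every library (circles) with the group mean (bar), for testes (blue) and cultured tissues (red). Clu, Shbg and Cst12 in culture reach the range of the 24.5 dpp testes and Aqp8 comes near it, Serpina5, Rhox8 and Id4 lie between 8.5 dpp and 24.5 dpp at D28, and Sycp3, Tesmin and Dkkl1 stay near the bottom of their range.

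Germ cell members were above 8.5 dpp in culture at low levels. Sycp3 encodes an axial element protein of meiotic chromosomes. It was 2.58, 2.68 and 2.88 FPKM at 8.5 dpp, 475, 460 and 461 at 24.5 dpp and 266, 251 and 268 at 30.5 dpp. In culture it was 7.82, 9.56 and 3.52 at D6, 10.6, 11 and 16.1 at D16, 17.3, 18.1 and 12.8 at D22, and 8.96, 19.6 and 9.97 at D28. Every cultured library was above every 8.5 dpp library and below every library of 24.5 dpp or older. D22 differed from 30.5 dpp by -3.96 (SE 0.14, limma adjusted p = 5.76e-07), and D16 from D6 by 0.83 (SE 0.32, adjusted p = 0.112). Sycp3 would not be a member without the second D28 library.

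Tex101, a surface protein of germ cells, was less reduced. It was 7.13, 6.76 and 6.64 FPKM at 8.5 dpp, 326, 360 and 484 at 24.5 dpp and 116, 123 and 163 at 30.5 dpp. It was 79.6, 57.2 and 52.0 at D22 and 29.5, 26.4 and 30.7 at D28, with no overlap between D22 and D28 or between D22 and 30.5 dpp. D22 differed from 30.5 dpp by -1.09 (SE 0.20, limma adjusted p = 0.00147). Tex12, a central element protein of paired meiotic chromosomes, is listed at 0 in all 8.5 dpp libraries and was 1.79, 11.1 and 0.990 FPKM at D28, so that 1 library made it a member. Tesmin, a gene of spermatocytes, was 0.673, 0.848 and 0.769 FPKM at 8.5 dpp, 253, 283 and 155 at 24.5 dpp and 216, 129 and 131 at 30.5 dpp. It was 2.98, 2.63 and 2.58 at D22, lower than at 30.5 dpp by 5.38 on the log2 scale with a limma estimate of -5.38 (SE 0.21, adjusted p = 7.39e-07).

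Spermatogonial members differed from each other. Id4, an inhibitor of DNA binding known from spermatogonial stem cells, was 2.96, 3.82 and 3.11 FPKM at 8.5 dpp and 67.5, 81.8 and 41.9 at 24.5 dpp. In culture it was 12.2, 9.50 and 8.40 at D6, 14.1, 11.3 and 14.4 at D16, 19.0, 19.5 and 18.0 at D22, and 22.6, 21.3 and 15.5 at D28. D22 differed from 30.5 dpp (80.3, 71.6 and 73.8) by -1.94 (SE 0.09, limma adjusted p = 1.74e-06). Dmrtb1, a transcription factor of the step from spermatogonia to meiosis, was 0.643, 0.332 and 0.710 FPKM at 8.5 dpp and 31.0, 28.1 and 33.4 at 24.5 dpp. It was 20.1, 19.9 and 25.7 at D6, 12.3, 13.5 and 13.6 at D16, 11.4, 3.58 and 5.45 at D22, and 20.2, 11 and 10.7 at D28. All D6 libraries were above all of D16 and D22. The difference between D16 and D6 (-0.69, SE 0.12, adjusted p = 0.012) stayed under a ratio of medians of 2, and D22 differed from 30.5 dpp (54.2, 65.4 and 65.5) by -3.13 (SE 0.34, limma adjusted p = 8.9e-05).

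Dkkl1 and Dnaaf1 rose late in vivo. Dkkl1, an acrosomal protein gene of spermatids, was 1.34, 0.905 and 0.688 FPKM at 8.5 dpp, 335, 255 and 228 at 24.5 dpp and 645, 650 and 615 at 30.5 dpp. The 12 cultured libraries had between 3.61 and 8.11 FPKM, with no called difference between D16 and D6 (-0.34, SE 0.11, limma adjusted p = 0.0719). D22 differed from 30.5 dpp by -6.57 (SE 0.19, adjusted p = 2.44e-07). Dnaaf1, an assembly factor of axonemal dyneins, was 2.04, 2.40 and 1.81 FPKM at 8.5 dpp, 572, 763 and 664 at 30.5 dpp and 15.6, 13.9 and 13.7 at D22 (difference -5.43, SE 0.13, limma adjusted p = 9.96e-08).

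Per summed FPKM of the germ cell genes Ddx4 and Dazl, again chosen after the values were seen, Sycp3 was 0.109 ± 0.00808 at 8.5 dpp, 1.26 ± 0.288 at 24.5 dpp, 0.0939 ± 0.0291 at D6, 0.173 ± 0.0160 at D22 and 0.195 ± 0.0140 at D28 (SD, n = 3 each). The D28 libraries were above all of 8.5 dpp and far below all of 24.5 dpp. Tex101 was 0.274 ± 0.00489 at 8.5 dpp, 1.02 ± 0.0952 at 24.5 dpp and 0.677 ± 0.104 at D22, and Id4 was 0.132 ± 0.0202, 0.175 ± 0.0714 and 0.208 ± 0.0481 in the same groups (SD, n = 3 each). At 30.5 dpp Sycp3 was 1.42 ± 0.112, Tex101 0.730 ± 0.172 and Id4 0.406 ± 0.0150 (SD, n = 3 each). On this scale D22 overlapped 30.5 dpp for Tex101, whose FPKM did not overlap, and was below it in all libraries for Sycp3 and Id4. At D28, however, Id4 was 0.338 ± 0.160 (SD, n = 3). Its range there overlapped those of 30.5 dpp and of age-matched 36.5 dpp, which had 0.361 ± 0.0526 (SD, n = 3). Tex101 was 0.498 ± 0.209 at D28 (SD, n = 3), and its lowest library overlapped 8.5 dpp. D22 and 24.5 dpp overlapped for Id4 and did not for Tex101. Dkkl1 was 0.0391 ± 0.0125 at 8.5 dpp, 0.756 ± 0.318 at 24.5 dpp and 0.0955 ± 0.0448 at D28, where it overlapped 8.5 dpp (SD, n = 3 each). Dmrtb1 was 0.0225 ± 0.00802, 0.0828 ± 0.0175 and 0.255 ± 0.184 in the same groups, with every D28 library above 8.5 dpp. Tex12 was 0 at 8.5 dpp, 0.124 ± 0.0301 at 24.5 dpp and 0.0571 ± 0.0493 at D28 (SD, n = 3 each). The 2 reference genes themselves differ between testis and culture. Ddx4 had a mean of 75.9 FPKM at 30.5 dpp and 7.60 at D22, and Dazl of 110 and 86.6. The order of groups on this scale can therefore depend on the reference gene, and levels per Ddx4 or Dazl alone were not compared.

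A few members were higher in culture than at any age in vivo. Sec14l4, a lipid-binding SEC14-like gene, was 1.60, 1.28 and 1.13 FPKM at 8.5 dpp, 5.13, 5.41 and 12.8 at 24.5 dpp and 1.98, 1.05 and 1.39 at 30.5 dpp. It was 13.0, 17.7 and 15.2 at D6, 29.2, 33.5 and 33.7 at D16, and 35.0, 23.6 and 33.7 at D22. All cultured libraries were above all testes, and D22 exceeded 30.5 dpp by 3.68 (SE 0.20, limma adjusted p = 2.75e-06). Its paralog Sec14l2, which encodes a tocopherol-associated protein, lies nearby with 2 protein-coding genes between them, is also a member, and exceeded 30.5 dpp at D22 by 1.50 (SE 0.12, adjusted p = 1.67e-05). Reads of paralogs can be split unevenly in counting.

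Sstr3, a somatostatin receptor gene, was 3.91, 0.836 and 6.77 FPKM at 24.5 dpp, 0.491, 0.866 and 1.41 at 30.5 dpp and 22.7, 24.9 and 15.9 at D22 (difference between D22 and 30.5 dpp 3.53, SE 0.22, limma adjusted p = 6.07e-06). Kcns3, a modulatory potassium channel subunit, was 5.47, 5.80 and 3.75 FPKM at 24.5 dpp, 2.16, 2.05 and 2.10 at 30.5 dpp, and 18.5, 20.2 and 21.5 at D22 (difference 2.76, SE 0.09, limma adjusted p = 4.62e-07). Fam163a was 0.601, 2.64 and 7.95 FPKM at 24.5 dpp and 28.4, 11 and 12.1 at D22, and exceeded 30.5 dpp by 3.32 (SE 0.37, adjusted p = 9.94e-05). For these genes the D22 libraries were above all testes. Without the third 24.5 dpp library Sec14l4, Sstr3, Fam163a and C3ar1 would not be members, since the mean of the other 24.5 dpp libraries did not reach a bound.

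C3ar1, the receptor of complement fragment C3a and found on macrophages, was 0.776, 0.671 and 0.535 FPKM at 8.5 dpp, 2.07, 2.18 and 5.55 at 24.5 dpp, 1.17, 1.39 and 1.63 at D6, 3.06, 3.34 and 3.15 at D16, 6.77, 5.14 and 6.03 at D22, and 6.65, 9.22 and 6.75 at D28. It rose in the D16 libraries over D6 by 0.81 (SE 0.09, limma adjusted p = 0.00435), while of 19 macrophage markers tested between D16 and D6 0 were called in either direction by limma (3 higher and 3 lower at an unadjusted p under 0.05). Macrophage markers were higher at D22 than at 30.5 dpp in 14 of 20 tested and lower in 4. In that comparison 65% of all genes were called, 42.1% higher and 22.9% lower. The part of macrophage markers in the C3ar1 difference between D22 and 30.5 dpp (1.86, SE 0.12, limma adjusted p = 7.25e-06) was not tested.

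Apod, Adh1c and Ciart were members of low level. Apod, a lipid carrier, was 7.82, 7.06 and 6.10 FPKM at D22 and 8.74, 6.30 and 7.98 at 30.5 dpp, overlapping. Adh1c, an alcohol dehydrogenase that also oxidizes retinol, was 4.10, 3.89 and 2.81 FPKM at D6, 0.668, 1.60 and 1.59 at D16, and 4.63, 4.16 and 3.58 at D22. It was the only member called lower at D16 than at D6 (-1.03, SE 0.20, limma adjusted p = 0.0186). Ciart, a repressor of the circadian clock, was 1.03, 1.23 and 1.23 FPKM at 8.5 dpp and 8.82 and 14 at 14.5 dpp, and 9.35, 8.45 and 9.62 at D6, so that it was near its highest level already at D6. At D22 it was 7.04, 5.34 and 6.11, below the 13.6, 14 and 11.7 of 30.5 dpp (-0.98, SE 0.13, limma adjusted p = 0.000222). The hour of day at which tissues were taken is not given in the sources used here.

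Between D6 and D16 more members rose than fell. Of 104 members tested between D16 and D6, 25 were called higher and 1 lower, against 3.3% of all genes called either way, 1.45% higher and 1.85% lower. Their median difference was 0.49 on the log2 scale and that of all genes tested was -0.02. The members were chosen for a rise between 8.5 dpp and D28, of which this interval is a part, so the direction of these counts is tied to that choice. Beside Aqp8, Clu, Cst12 and Serpina5, the largest rises were those of H2az2, 6030498E09Rikl and Emb. Emb encodes embigin, a partner of monocarboxylate transporters, and was 11.4, 11.4 and 9.38 FPKM at D6 and 35.8, 35.8 and 36.3 at D16 (difference 1.66, SE 0.10, limma adjusted p = 0.000562). 6030498E09Rikl was 2.45, 2.71 and 2.34 FPKM at D6 and 16.3, 14.5 and 17.5 at D16 (difference 2.28, SE 0.10, adjusted p = 0.000142). H2az2 is listed at 0 in all D6 libraries and stood at 10.3, 11.2 and 11.2 FPKM at D16, and at 0, 9.44 and 0 at D28. Of the genes on the Sertoli lists that are no members, 2 of 24 maturation genes rose, and of 16 identity genes 1 was lower and 0 were higher by limma (5 higher and 5 lower at an unadjusted p under 0.05).

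The comparison of D6 with age-matched 14.5 dpp testes gave calls in both directions. Of 105 members tested, 14 were called higher and 6 lower at D6, where 7.94% of all genes were called (5.57% higher, 2.37% lower), and the members' median difference was -0.03. Isyna1 (1.50, SE 0.20, limma adjusted p = 0.00851), Sstr3, Kcns3 and Fam163a were among the higher ones, and Serpina5, Epyc and Dnajc2 among the lower ones. The Isyna1 difference was 1.19 without 14.5 dpp replicate 1 and 1.81 without replicate 2. Epyc was not called without replicate 2, and Dnajc2 was not called without either of them. With no filter on low values none of these 7 genes was called (limma adjusted p from 0.0638 for Serpina5 to 0.151 for Epyc). Leaving out 14.5 dpp replicate 1 gave 11 higher and 22 lower, and leaving out replicate 2 gave 25 higher and 1 lower, so the balance of directions rested on those libraries.

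The comparison of D22 with 14.5 dpp gave 41 members higher and 4 lower of 107 tested, beside 12.8% of all genes called (7.37% higher, 5.42% lower). Their direction, too, is tied to the choice of members. Aqp8 was higher by 4.84 (SE 0.85, limma adjusted p = 0.014), 6030498E09Rikl by 3.76 and Emb by 2.66, while Dmrtb1 was lower (-2.45, SE 0.43, adjusted p = 0.0141), as were Tex12, Dnajc2 and Hmx1. Without 14.5 dpp replicate 1 and without replicate 2, respectively, the difference was 3.31 and 6.37 for Aqp8, 3.32 and 4.20 for 6030498E09Rikl, 2.41 and 2.91 for Emb, and -2.73 and -2.17 for Dmrtb1, which was not called in the latter (limma adjusted p = 0.0605). With no filter on low values Aqp8 and Dmrtb1 were not called (limma adjusted p = 0.0831 and 0.0817). Without 14.5 dpp replicate 1 the counts were 33 and 9, and without replicate 2 they were 60 and 2. In testes, 30.5 dpp against 14.5 dpp gave 37 members higher and 8 lower of 107, beside 62.7% of all genes called (21.1% higher, 41.6% lower). Members were chosen for a rise in testes over an interval that overlaps this one. The direction of these counts is thus also tied to that choice. Those counts became 31 and 20 without replicate 1, 56 and 5 without replicate 2, and 48 and 3 after each library was scaled to its median.

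At D22 against the age-matched 30.5 dpp testes, the members went both ways. Of 107 tested, 32 were called higher in culture, 24 lower and 51 did not pass, beside 65% of all genes called (42.1% higher, 22.9% lower). The median over members was 0.37 and that over all genes 0.51 on the log2 scale, a general shift that was 0.16 after each library was scaled to its median. With that scaling the counts were 25 higher and 30 lower, and with quantile normalization 28 and 27. Without the poorly measured members they were 30 and 21 of 90.

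The lower members included genes known from germ cells, namely Dkkl1, Dnaaf1, Tesmin, Sycp3, Tulp2, Spdya, Dmrtb1, Dnajb13, Dpep3, Magec2, Id4, Magea14 and Tex101, with Cpt1b, Cbx7, Serpina5, Rhpn1, Abcb9, Zbtb42, Isyna1, Ciart and the poorly measured Rpl6, Dnajc2 and Uqcc2. Here Spdya activates CDK2 in meiosis and Dnajb13 belongs to the sperm flagellum. The paralogs Magea13, Magea14 and Magec2 are uncertain in how reads were shared. The higher members included Sec14l4, Sstr3, Fam163a, Rbbp4, Kcns3, Dapp1, Nags, Pla2r1, Clec12b, Epyc, Clu, C3ar1, Pam16, Susd3, Shbg, Enho, Ephb1, Ehd3, Nrn1l, Sec14l2, Prr15, Gna14, Rnf138l1, Spire1, Cttnbp2, Pla2g2d, Tox2, 6030498E09Rikl, Defb36, Shc4 and Dcx. Both lists go beyond the rule for named genes. Rbbp4, called higher by 3.19 (SE 1.04, limma adjusted p = 0.0233), is listed at 0 in 2 of 3 libraries of 30.5 dpp and was 25, 28.7 and 14.6 FPKM at D22.

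Non-member genes of the same lists moved in the same comparison, and their part in the members' differences was not tested. Of 17 Sertoli identity genes 16 were called higher at D22 than at 30.5 dpp and 0 lower, and of 27 Sertoli maturation genes 19 were higher and 5 lower. Of 36 spermatocyte genes 0 were higher and 30 lower, of 38 spermatid genes 0 and 35, and of 19 axoneme genes 0 and 19. Of 15 spermatogonial genes that are no members, in contrast, 11 were higher and 2 lower, while the spermatogonial members Id4 and Dmrtb1 were lower. At an unadjusted limma p under 0.05, 1 spermatocyte gene was higher and no spermatid or axoneme gene was, and no Sertoli identity gene was lower. Summed FPKM of 36 spermatocyte genes without the members was 5505 ± 131 (SD, n = 3) at 30.5 dpp and 203 ± 22.1 (SD, n = 3) at D22.

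**Figure D5:**
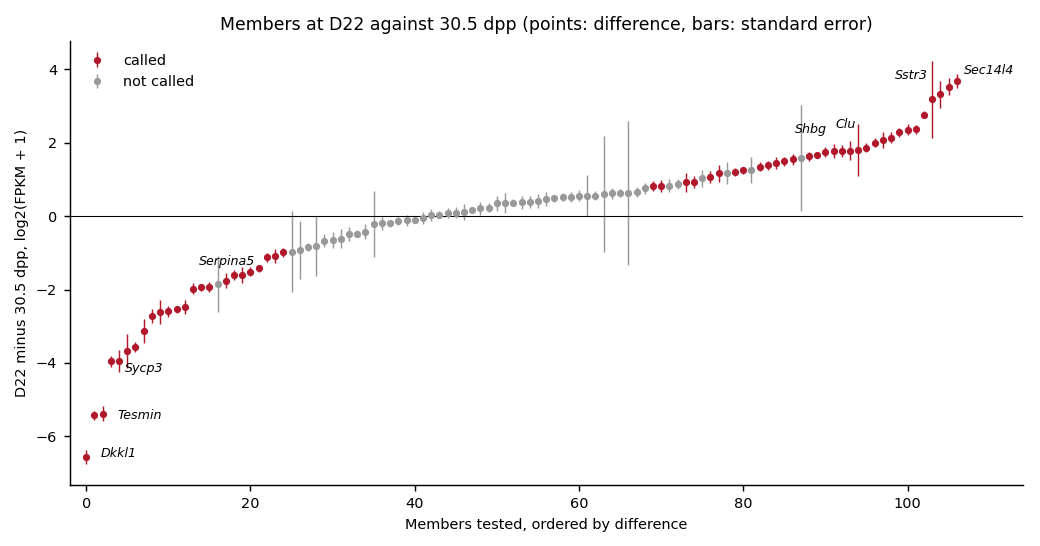
Difference between D22 and 30.5 dpp on the log2(FPKM + 1) scale (y axis) for the 107 members tested, ordered along the x axis, with standard errors as bars and called members in red. The range is from Dkkl1 at -6.57 to Sec14l4 at 3.68, with 24 called members below and 32 above 0.

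After 30.5 dpp the members that changed mostly fell, as did genes in general, in a count that depended on the scaling. At 53.5 dpp, 2 members were called higher and 33 lower than at 30.5 dpp of 104 tested, beside 39.8% of all genes called (9.52% higher, 30.3% lower). The share of members called lower, 31.7%, was thus near that of all genes. The higher ones were Tulp2, a tubby-like gene of late germ cells, at 37.1, 152 and 67.8 FPKM at 30.5 dpp and 253, 408 and 372 at 53.5 dpp (2.20, SE 0.47, limma adjusted p = 0.00481), and Cyfip2 (1.17, SE 0.12, adjusted p = 0.000576). Among the lower were Shbg (-1.61, SE 0.16, adjusted p = 0.000552), Sycp3 (-1.21, SE 0.14, adjusted p = 0.000657) and Clu (-1.09, SE 0.20, adjusted p = 0.00226). The steepest falls were those of Tmbim6, Tex12 and Dnajc2, which have zeros in some libraries. After scaling to the library median 8 were higher and 10 lower, and with quantile normalization 8 and 12.

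Membership was close for some genes. Just inside the bound at 24.5 dpp were Eif3k and Dapp1, at 4.01 and 4.12 times the 8.5 dpp mean, and just outside Isg20 and Sesn2, at 3.83 and 3.80 times. For D28, Magea14 and Atosa were just inside at 4.02 and 4.14 times, and Slc35f2 and Xkr8 just outside at 3.95 and 3.87 times.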

How the data were processed

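RNA-seq was made from polyA RNA of rat testes with a stranded kit and single 50 bp reads. The authors aligned reads with STAR 2.5.2a to rn6 and deposited 1 FPKM value per gene and library, computed by StringTie and Ballgown and scaled to transcript length and mapped reads. The read depth behind each FPKM value is unknown, because counts were not used here. Of 17322 Entrez Gene identifiers, 17172 matched RefSeq, which gave the symbols.

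Groups follow the age and culture time in the labels, where titles write dpc for the same ages. Deposited FPKM were transformed to log2(FPKM + 1), and genes whose median reached 0.5 FPKM in any group compared entered limma 3.58.1 (R 4.3.3) in a fit of those groups. P-values were adjusted by Benjamini-Hochberg over all genes tested. Calls needed an adjusted p no higher than 0.05 together with group medians differing at least 2-fold, or, for a difference between rises, a contrast of at least 1 on the log2 scale. A log2 difference understates the change of low genes. The tests were checked on simulated data.

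Members and gene lists were chosen with earlier results of these data known. Genes named were listed members, the 8 most abundant at D22, the largest called differences of each comparison, and genes next to the bounds. Genes outside this rule were named after their values were seen. Alternatives changed the rule, pseudocount, filter, scaling and model and left out each library. Values were summarised in Python 3.11.15 with pandas 2.3.3 and drawn with matplotlib 3.10.9.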

Additional observations from a re-analysis of the deposited data

Results flagged for a closer look

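The rise from D6 to D22 in culture was set against the rise from 14.5 to 30.5 dpp in testes, as an interaction contrast in 1 limma fit of the 4 groups with Benjamini-Hochberg adjustment. It differed in 52 of 109 members tested, 30 higher and 22 lower in culture, beside 51.1% of all genes called (32.9% higher, 18.2% lower). The members' share, 47.7%, was near that of all genes, so the count shows nothing particular to them. With each library scaled to its median the split was 17 higher and 28 lower, without 14.5 dpp replicate 1 it was 46 and 21, and without replicate 2 it was 17 and 25.

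Epyc, a small leucine-rich proteoglycan gene, had the largest contrast in favour of culture, 3.58 (SE 0.41, limma adjusted p = 2.30e-05). It was 24.1 and 47.5 FPKM at 14.5 dpp and 5.75, 5.62 and 7.80 at 30.5 dpp, while it went from 12.5, 13.4 and 8.63 at D6 to 21.8, 35.1 and 34.6 at D22. Sec14l4 had a contrast of 2.45 (SE 0.30, limma adjusted p = 3.80e-05) and Clu of 2.43 (SE 0.39, adjusted p = 0.000236). The Clu contrast is one of FPKM. Per summed FPKM of Sox9, Wt1 and Gata4, Clu was 1.96 ± 1.17 (SD, n = 2) at 14.5 dpp and 13.0 ± 0.447 (SD, n = 3) at 30.5 dpp. On that scale it was 1.19 ± 0.134 at D6 and 5.84 ± 0.764 at D22 (SD, n = 3 each), and the difference between the rises was not tested.

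In the other direction stood Dkkl1 at -6.83 (SE 0.48, limma adjusted p = 8.29e-07) and Dnaaf1 at -5.40 (SE 0.32, adjusted p = 2.53e-07), both called higher at 30.5 than at 14.5 dpp. Dkkl1 was 5.58, 5.80 and 5.44 FPKM at D6 and 8.11, 5.20 and 4.35 at D22, and Dnaaf1 was 9.29, 9.07 and 11.9 at D6 and 15.6, 13.9 and 13.7 at D22. Rpl6, at -7.81 (SE 1.90, limma adjusted p = 0.00368), is listed at 0 in both 14.5 dpp libraries and all D22 libraries and at 0, 34.9 and 83.8 FPKM at D6. Without 14.5 dpp replicate 1 and without replicate 2, respectively, the contrast was 4.05 and 3.10 for Epyc, 2.22 and 2.68 for Sec14l4, 3.05 and 1.81 for Clu, -6.07 and -7.59 for Dkkl1, and -4.95 and -5.86 for Dnaaf1, all called. With 3 or fewer libraries a group, no single library was tested as an outlier.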

How the results depend on the processing

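Read depth is unknown and groups hold 3 or 2 libraries, which limits what can be called. Of 136 pairs of a count and an alternative, 122 stayed within 1.5 times the reported count and 14 did not. The number of members was 179 with a ratio of 3, 52 with a ratio of 8, 212 with a mean of 1 FPKM and 52 with a mean of 10 FPKM, and 104 to 118 when 1 library was left out. Group medians in place of means gave 108 genes, 93 of them shared. Members called between D6 and 14.5 dpp were 4 with no filter on low values, 32 in 1 fit of the 7 groups and 11 to 33 with 1 library left out. Between D22 and 14.5 dpp they were 22 with no filter and 35 to 62 with 1 library left out, the highest without 14.5 dpp replicate 2. Between 53.5 and 30.5 dpp they were 20 with quantile normalization, 18 with median scaling and 28 to 43 with 1 library left out. With 1 library left out, counts were 21 to 27 for D16 against D6, 52 to 59 for D22 against 30.5 dpp, 42 to 61 for 30.5 against 14.5 dpp, and 42 to 67 for the difference between the rises. Where this left 1 library at 14.5 dpp, that library was assumed to vary like the other group. Leaving out the 20 poorly measured members, an alternative chosen after seeing the data, gave 18, 25, 42, 51, 41, 27 and 49 calls in the order of D6 against 14.5 dpp, D16 against D6, D22 against 14.5 dpp, D22 against 30.5 dpp, 30.5 against 14.5 dpp, 53.5 against 30.5 dpp and the difference between rises. The cause of these changes was not tested.

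Libraries share replicate numbers across groups. Deviations of same-numbered libraries from their group means had correlations across genes from -0.06 to 0.15, so the numbers were not taken to pair libraries. With a replicate block, 11 members were called between D6 and 14.5 dpp in place of 20, and no other count moved by over 1.5 times. For the 129 called differences of named genes, 1909 of 2102 alternatives kept the call, 193 lost it and 0 reversed it, and 78 differences kept it in every alternative run.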
